A study of Mus musculus with 18 samples.

Results

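The genes described here encode the zona pellucida and other proteins of the oocyte surface, and they were chosen by symbol. They are Zp1, Zp2, Zp3, Oosp1, Oosp2, Oosp3, Astl, Izumo1r and Cd9, and all 9 were found among the 30172 genes of the deposited tables. RNA was taken from whole ovaries of wild-type F1 females of C57BL/6J dams at 3 ages, named by the day after birth as Pd3, Pd7 and Pd21. In the F1-HHcy groups the dams ate chow with 3% methionine by weight, a diet that induces hyperhomocysteinemia (HHcy, raised homocysteine in blood), which by the labels began 4 weeks before mating and lasted until the end of lactation (the study's methods give a longer time before mating). In the F1-Control groups the dams ate normal chow, and the pups of both groups were not treated themselves. Each of the 6 groups had 3 libraries, 18 in all. By the labels, batch 1 held the younger ages (Pd3 and Pd7) and batch 2 held Pd21. The number of pups and litters behind each library is not given in the sources used here, so a p-value measures only the spread between these libraries, which may be technical.

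The zona pellucida is the glycoprotein coat that a growing oocyte secretes around itself. In the mouse it is built from ZP2 and ZP3, which form filaments, and from ZP1, which cross-links them, and all of them are made by the oocyte while its follicle grows. Resting oocytes of primordial follicles have no complete coat, and the transcription factor FIGLA, which binds short DNA motifs called E-boxes, is known to drive the zona genes in oocytes. OOSP1, OOSP2 and OOSP3 are small proteins secreted by the oocyte and related to placental PLAC1. ASTL (ovastacin) is a protease stored in cortical granules that cleaves ZP2 after fertilization, IZUMO1R (JUNO) is the receptor for IZUMO1 on the sperm, and CD9 is a tetraspanin of the egg membrane needed for fusion with sperm that many other cell types also carry.

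In the GRCm38 assembly, Oosp2 (chr19:11647279-11660559, minus strand), Oosp1 (chr19:11667460-11691150, minus strand) and Oosp3 (chr19:11697055-11711874, plus strand) lie side by side. Zp1 is on the same chromosome (chr19:10914287-10920632, minus strand). The other genes are scattered, with Zp2 at chr7:120126772-120145291 (minus), Zp3 at chr5:135980099-135988624 (plus), Astl at chr2:127338639-127357651 (plus), Izumo1r at chr9:14885814-14903949 (minus) and Cd9 at chr6:125460266-125494791 (minus). In GENCODE M21 the exons of 7 of the 9 genes overlap no exon of another gene. Exons of Oosp3 overlap the processed pseudogene Gm19224 and exons of Cd9 overlap Gm26728, each on the opposite strand. The libraries were stranded, but the strand setting of the counting is not given in the sources used here.

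RefSeq promoter sequences (GRCm38.p6) were at hand for Zp3, Oosp1, Oosp2, Astl, Izumo1r and Cd9. The 200 bases before the start are shown for 5 of them, because the first 4 genes rose at Pd3 in the ovaries of F1-HHcy females and Cd9 did not. They are written 5′ to 3′ on the strand of the gene, and capitals mark each match to the E-box CANNTG, which reads the same on both strands as a pattern. The windows are chr5:135979905-135980104 for Zp3, chr19:11691052-11691251 for Oosp1, chr19:11660560-11660759 for Oosp2, chr2:127341436-127341635 for the downstream start of Astl and chr6:125494761-125494960 for Cd9.
Zp3: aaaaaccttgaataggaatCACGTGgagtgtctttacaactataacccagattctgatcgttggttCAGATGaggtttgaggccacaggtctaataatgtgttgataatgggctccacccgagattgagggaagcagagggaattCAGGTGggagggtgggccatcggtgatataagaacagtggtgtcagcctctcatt
Oosp1: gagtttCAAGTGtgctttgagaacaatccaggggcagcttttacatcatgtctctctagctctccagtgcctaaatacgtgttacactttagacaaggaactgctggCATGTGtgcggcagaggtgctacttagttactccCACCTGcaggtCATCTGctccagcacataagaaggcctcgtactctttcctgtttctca
Oosp2: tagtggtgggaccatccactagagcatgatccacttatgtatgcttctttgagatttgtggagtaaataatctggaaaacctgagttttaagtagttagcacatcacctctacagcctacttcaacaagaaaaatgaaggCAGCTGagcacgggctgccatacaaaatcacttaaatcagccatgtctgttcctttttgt
Astl: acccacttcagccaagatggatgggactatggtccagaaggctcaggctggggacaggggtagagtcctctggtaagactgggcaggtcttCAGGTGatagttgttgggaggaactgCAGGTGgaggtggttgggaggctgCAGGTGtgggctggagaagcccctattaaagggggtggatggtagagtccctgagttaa
Cd9: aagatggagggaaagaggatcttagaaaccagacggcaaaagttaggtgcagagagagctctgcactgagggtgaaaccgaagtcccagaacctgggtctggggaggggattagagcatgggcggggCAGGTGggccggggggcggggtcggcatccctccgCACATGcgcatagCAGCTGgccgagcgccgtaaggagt

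Zp3 held 3 E-boxes in this window, Oosp1 held 4, Oosp2 held 1, Astl held 3 and Cd9 held 3. Of 32851 RefSeq promoters of the same length, 58.2% held at least 1 E-box, 7.5% held at least 3 and 1.9% held at least 4. Izumo1r had 1 match, and the upstream start of Astl (chr2:127338439-127338638) had 0. A match lay 55 bases before the start in Zp3, 59 in Oosp1, 60 in Oosp2, 59 in Astl and 57 in Izumo1r, counted from its first base, and the matches of Cd9 lay 73, 38 and 25 bases before the start. The distance given for Astl is that of its downstream start. The counts do not separate the genes that rose from Cd9. The share of all promoters with a match at such distances was not computed, so nothing is drawn from the distances. Whether any of these sites is bound was not measured here.

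Levels are given as FPKM, a fragment count scaled to gene length and sequencing depth, so that they can be compared between genes. Depth was 33630642 to 39399282 fragments per library. In F1-Control ovaries at Pd3, Zp2 was the most abundant of the 9 genes (249.5 ± 63.1 FPKM, SD, n = 3), followed by Zp3 (170.0 ± 43.6), whose libraries overlapped those of Zp2. Below them came Cd9 (87.9 ± 5.99), Zp1 (48.3 ± 5.18) and Astl (13.2 ± 3.85), each apart from its neighbours in all 3 libraries. Oosp1 (4.57 ± 2.13) and Oosp2 (3.46 ± 0.726) overlapped each other, and Izumo1r stood at 2.29 ± 0.295 FPKM. Oosp3 was nearly silent at 0.305 ± 0.216 FPKM, with 10, 2 and 14 fragments per library. At Pd21 the order was another one, with Zp3 (456 ± 117 FPKM) and Zp2 (387 ± 139) overlapping at the top, Zp1 (174 ± 44.4) and Oosp1 (169 ± 55.3) overlapping below them, and Izumo1r (9.37 ± 3.27) last. The plot of the levels by library shows each gene on its own axis.

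**Figure D1:**
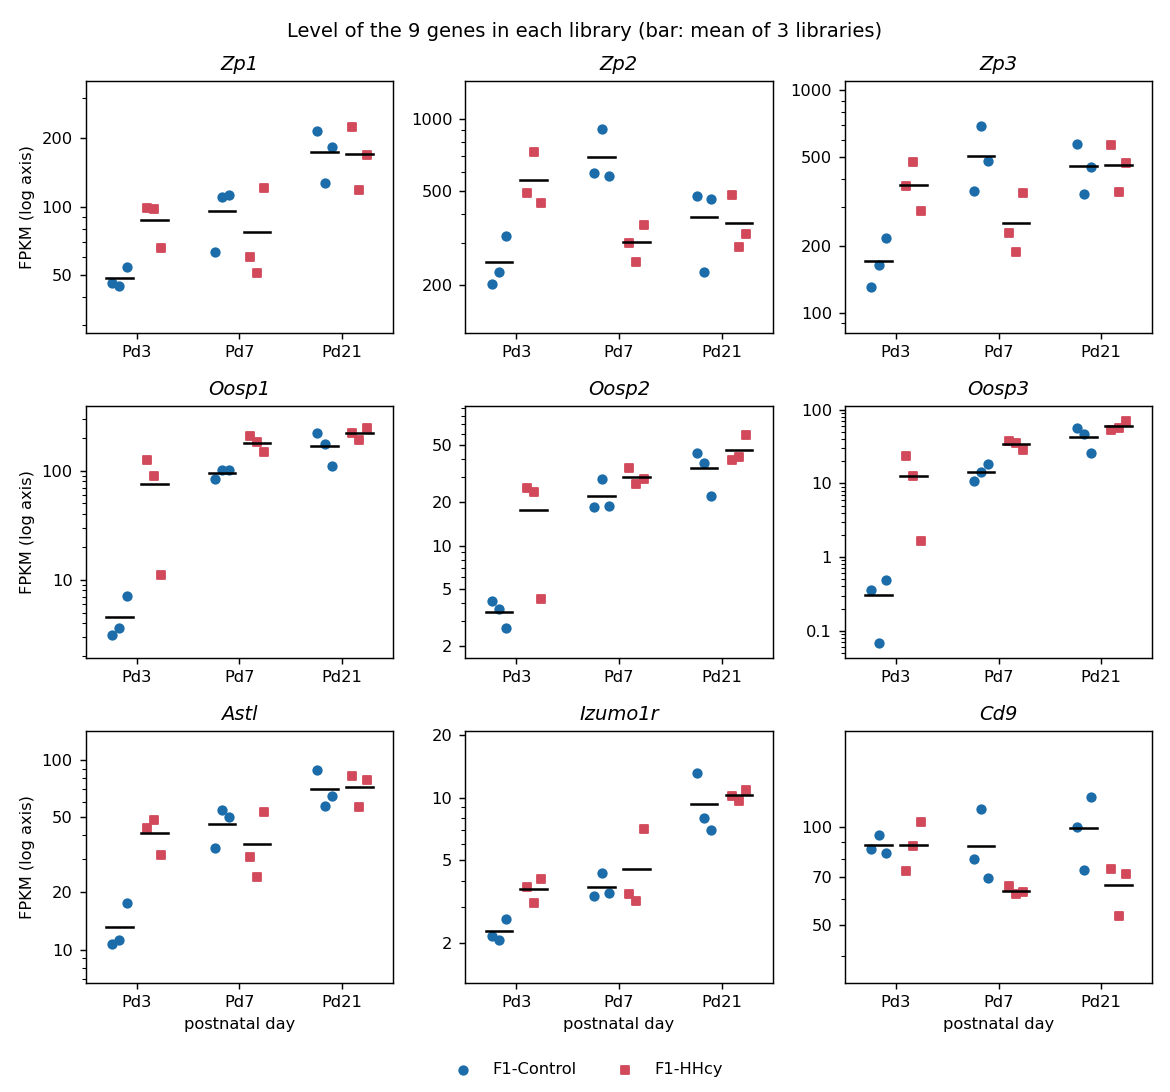
FPKM of the 9 genes in each of the 18 libraries by postnatal day (log axes, 1 panel per gene, blue circles F1-Control, red squares F1-HHcy, black bars the mean of 3 libraries). At Pd3 the F1-HHcy libraries lie above the F1-Control libraries for every gene but Cd9, and the lowest F1-HHcy library of Oosp1, Oosp2 and Oosp3 is the same one, replicate 3.

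Between Pd3 and Pd7, which share batch 1, most of these genes rose in F1-Control ovaries. Calls needed 2 things, an unadjusted limma p under 0.05 and a log2 fold change over 0.58 in size on log2(FPKM + 1), a scale that understates the change of genes near 1 FPKM. Adjustment of p followed Benjamini and Hochberg over all genes tested. By this rule 7 of the 9 genes were higher at Pd7 than at Pd3 and 0 were lower, against 6.76% higher and 6.89% lower of 14607 genes tested. The median log2 fold change of the 9 genes was 1.55, and that of all genes was -0.05. Oosp1 rose most, from 4.57 to 95.5 ± 10.3 FPKM (log2 fold change 4.17 ± 0.57 SE, adjusted p = 0.00052 with limma). Zp2 reached 692 ± 186 FPKM (1.46 ± 0.30, adjusted p = 0.00632) and Zp3 reached 508 ± 169 (1.55 ± 0.29, adjusted p = 0.00419). Izumo1r (0.52 ± 0.23) and Cd9 (-0.03 ± 0.20) were not called.

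From Pd7 to Pd21, where age and batch cannot be told apart, the zona genes of F1-Control ovaries went separate ways. Zp1 rose (0.88 ± 0.31, adjusted p = 0.0425), Zp2 fell by 0.88 on the log2 scale (SE 0.30, adjusted p = 0.0337), and Zp3 gave -0.13 ± 0.29. Oosp3 (1.48 ± 0.53, adjusted p = 0.0427), Izumo1r (1.10 ± 0.23, adjusted p = 0.00213) and Astl (0.60 ± 0.28, adjusted p = 0.110) were also called higher. In all, 4 genes were higher and 1 was lower, against 14.5% and 9.48% of all genes. Without F1-Control Pd7 replicate 1 the count was 3, and without F1-Control Pd21 replicate 1 it was 2. Zp1 was not called without either of them (0.61, unadjusted p = 0.0802, and 0.72, unadjusted p = 0.0575). Zp2 was not called without F1-Control Pd7 replicate 2 (-0.67, unadjusted p = 0.0527) or Pd21 replicate 2 (-0.53, unadjusted p = 0.0757).

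At Pd3, most of the oocyte surface genes were higher in the ovaries of F1-HHcy females. The comparison asks how the diet of the dam altered the transcript levels of the daughters' ovaries at a given age. All 3 zona genes, all 3 Oosp genes and Astl were called higher, which makes 7 of 9, with 0 called lower, against 5.0% higher and 4.74% lower of 13277 genes tested that day. The libraries of the diets did not overlap for 8 of the 9 genes, against 27.9% of all genes. The median log2 fold change of the 9 genes was 1.15, and that of all genes was -0.03. Oosp3 passed the filter on low values only through the F1-HHcy libraries, so its own call is in part a product of that filter. Since these are whole ovaries, more oocytes of a stage and more RNA per oocyte cannot be told apart in any of these differences.

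Among the zona genes, Zp2 stood at 202, 226 and 321 FPKM in the F1-Control libraries and at 488, 728 and 444 in the F1-HHcy libraries. Every F1-HHcy library was above every F1-Control library, and the group means differed 2.22-fold (log2 fold change 1.14 ± 0.24, adjusted p = 0.0510). Zp3 went from 130.1, 163 and 217 FPKM to 369.5, 474 and 288 (2.22-fold, 1.15 ± 0.24, adjusted p = 0.0486). Zp1, the cross-linker of the filaments, was 46.1, 44.7 and 54.3 FPKM in F1-Control and 98.6, 97.5 and 65.8 in F1-HHcy (1.81-fold, 0.82 ± 0.17, adjusted p = 0.0532). In each of the zona genes the groups were apart, and the lowest F1-HHcy library was replicate 3.

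The Oosp genes showed larger and less even differences. Oosp1 was 3.09, 3.61 and 7.01 FPKM in F1-Control ovaries at Pd3 and 125, 89.7 and 11.03 in F1-HHcy ovaries. Replicates 1 and 2 of F1-HHcy were far above the controls and replicate 3 was just above the highest of them, and the group means differed 16.5-fold (3.28 ± 0.81, adjusted p = 0.0714). Oosp2 went from 4.09, 3.61 and 2.67 FPKM to 24.96, 23.6 and 4.27 (1.76 ± 0.57, adjusted p = 0.131). Oosp3 went from 0.352, 0.0691 and 0.494 FPKM to 23.7, 12.6 and 1.65, or from 10, 2 and 14 fragments to 693, 365 and 46 (2.90 ± 0.72, adjusted p = 0.0723). Replicate 3 of F1-HHcy was the lowest of its group in all 3 neighbouring genes. Without it the log2 fold change was 4.33 for Oosp1 (adjusted p = 0.000179) and 2.52 for Oosp2 (adjusted p = 0.000172), and Oosp3 was no longer tested. Without F1-HHcy replicate 2, Oosp2 gave 1.41 (unadjusted p = 0.0551) and was not called.

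Astl had the smallest p of the 9 genes at Pd3. It was 10.7, 11.2 and 17.6 FPKM in F1-Control ovaries and 44.0, 48.2 and 31.7 in F1-HHcy ovaries, a difference of 3.14-fold without overlap (1.59 ± 0.22, adjusted p = 0.0211). Astl and Zp3 were the 2 genes of the 9 that were also called with the adjusted p as threshold, against 2.84% of all genes. Izumo1r, the sperm receptor gene, was 2.17, 2.07 and 2.62 FPKM in F1-Control and 3.74, 3.12 and 4.06 in F1-HHcy. Its groups did not overlap either, but its log2 fold change of 0.50 ± 0.14 (adjusted p = 0.104) stayed under the limit of 0.58. Cd9 was 85.6, 94.7 and 83.3 FPKM in F1-Control and 73.2, 87.4 and 103 in F1-HHcy, and its log2 fold change was -0.01 ± 0.14, which leaves no difference beyond the spread between libraries.

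At Pd7, the genes called were split in direction. Oosp1 and Oosp3 were called higher and Zp2 and Zp3 were called lower in F1-HHcy ovaries, which makes 2 of 9 in each direction, against 9.06% higher and 7.35% lower of 13299 genes tested. The libraries of the diets did not overlap for 5 of the 9 genes, against 39.0% of all genes. The count with the adjusted p as threshold was 3 of 9 (Zp2, Oosp1 and Oosp3), against 11.1% of all genes.

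Oosp1 stood at 83.7, 102 and 101 FPKM in F1-Control and at 209, 181 and 149 in F1-HHcy libraries (1.88-fold, 0.90 ± 0.17, adjusted p = 0.0119). Oosp3 stood at 10.7, 14.1 and 18.1 FPKM in F1-Control and at 37.7, 35.6 and 28.6 in F1-HHcy (2.38-fold, 1.21 ± 0.19, adjusted p = 0.00658). In both genes the groups were apart. Oosp2 overlapped between the diets, with 18.4, 29.0 and 18.9 FPKM against 34.5, 26.7 and 28.9 (0.45 ± 0.19, adjusted p = 0.144). Without F1-Control replicate 2, Oosp2 was called higher (0.65, unadjusted p = 0.00184). When all 18 libraries shared 1 estimate of the spread, Oosp1 at Pd7 was no longer called, at an unadjusted p of 0.136 with the same fold change.

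Zp2 at Pd7 was 591, 906 and 578 FPKM in F1-Control ovaries and 301, 250.4 and 359 in F1-HHcy ovaries. The groups were apart, and Zp2 fell by 1.17 on the log2 scale (SE 0.23, adjusted p = 0.0142), a mean 2.28-fold lower. Zp3 was 354, 689 and 479 FPKM in F1-Control and 228, 187 and 346 in F1-HHcy (-0.99 ± 0.29, adjusted p = 0.0526), and the highest F1-HHcy library lay just under the lowest F1-Control library. Zp1 was 63.3, 109.8 and 113 FPKM against 60.0, 50.9 and 121 (-0.36 ± 0.32, adjusted p = 0.474) and overlapped. Astl (34.3, 54.2 and 49.9 FPKM against 30.9, 24.3 and 53.3) gave -0.39 ± 0.27 and Izumo1r (3.36, 4.35 and 3.47 against 3.43, 3.17 and 7.06) gave 0.17 ± 0.24, and neither was called. In Zp1, Zp2, Zp3, Astl and Izumo1r the highest F1-HHcy library was replicate 3. Without it Zp1 (-0.73, unadjusted p = 0.0239) and Astl (-0.71, unadjusted p = 0.0130) were also called lower. Without F1-HHcy replicate 2, in turn, Zp1 gave -0.11 and Astl gave -0.15. Cd9 was 79.5, 114 and 69.6 FPKM in F1-Control and 66.1, 62.2 and 63.0 in F1-HHcy, apart but with -0.42 ± 0.19 (adjusted p = 0.152) under the limit. Epithelial markers were mixed at Pd7. Of 4 oviduct markers tested, 2 were called lower (Epcam and Pax8) and 1, Ovgp1, higher (5.11 against 0.907 FPKM, 1.22 ± 0.52, adjusted p = 0.146). The F1-HHcy libraries of Ovgp1 ran from 1.28 to 12.1 FPKM and those of F1-Control from 0.795 to 1.03. Ovgp1 thus passed the filter on low values mainly through F1-HHcy, and its call is in part a product of that filter. Of 4 surface epithelium markers, 2 were called lower (Krt19 and Lgals7), where 7.35% of all genes were lower and 9.06% higher. Epcam was 10.8 against 34.8 FPKM (-1.57 ± 0.25, adjusted p = 0.00646) and Krt19 was 86.1 against 234.5 FPKM (-1.43 ± 0.28, adjusted p = 0.0121). The part of these markers in the values of Cd9 was not tested.

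**Figure D2:**
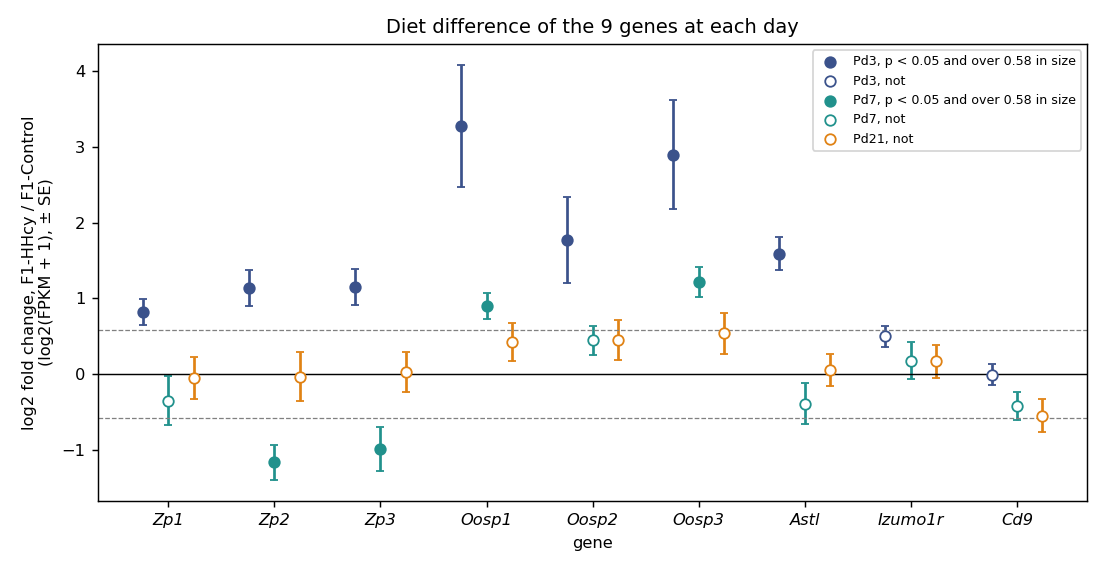
Log2 fold change of each gene between F1-HHcy and F1-Control at Pd3, Pd7 and Pd21 on log2(FPKM + 1), with the standard error of the limma fit (n = 3 libraries per group). Filled points passed the unadjusted p and the size limit of 0.58 (dashed lines). Oosp1, Oosp3, Zp2 and Zp3 are filled at Pd3 and Pd7, the zona genes above 0 at Pd3 and below 0 at Pd7, and no point is filled at Pd21.

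At Pd21, 0 of the 9 genes were called in either direction, against 0.0824% higher and 5.06% lower of 13350 genes, and 0 of 9 were apart between the diets, against 10.5% of all genes. With the adjusted p as threshold the count was also 0, against 2.23% of all genes, while 1 of the 9 genes, Cd9, had an unadjusted p under 0.05, and limma-voom called 0 as well. Zp2 was 472, 227 and 462 FPKM in F1-Control ovaries and 479, 288 and 329 in F1-HHcy ovaries (-0.04 ± 0.32), and Zp3 was 573, 340.3 and 454 against 566, 349.98 and 471 (0.02 ± 0.26). Zp1 (214, 127 and 183 FPKM against 223, 118 and 168) gave -0.05 ± 0.27. The standard errors of these 3 differences ran from 0.26 to 0.32 on the log2 scale, so a difference of that size was not detectable with 3 libraries per group.

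The Oosp genes at Pd21 had positive log2 fold changes within their spread, with 0.42 ± 0.25 for Oosp1, 0.44 ± 0.27 for Oosp2 and 0.54 ± 0.27 for Oosp3 (adjusted p = 0.920). Oosp3 stood at 56.0, 47.1 and 25.7 FPKM in F1-Control and at 53.8, 56.3 and 70.2 in F1-HHcy, and the lowest F1-Control library was replicate 3 for Oosp1, Oosp2 and Oosp3 alike. Without F1-Control replicate 1, Oosp1 (0.64, unadjusted p = 0.0383) and Oosp3 (0.76, unadjusted p = 0.0259, adjusted p = 0.930) were called higher. Without F1-Control replicate 3, in turn, Oosp1 gave 0.145, Oosp2 gave 0.159 and Oosp3 gave 0.212, and none of them was called. Astl gave 0.05 ± 0.21 and Izumo1r gave 0.17 ± 0.22. Cd9 had the lowest p, at 100.1, 73.6 and 124 FPKM in F1-Control and 74.3, 53.1 and 71.9 in F1-HHcy (-0.55 ± 0.22, unadjusted p = 0.0346, adjusted p = 0.594). Markers of the oviduct, an epithelium that may be collected with an ovary, moved with this difference. The summed level of Ovgp1, Foxj1, Pax8, Epcam and Cldn3 was 94.8 to 511 FPKM in the F1-Control libraries at Pd21 and 10.4 to 25.2 in the F1-HHcy libraries, with all 5 genes called lower in F1-HHcy and the defining marker Ovgp1 at 37.5 to 365 against 0.370 to 2.10 FPKM. Of 4 markers of the ovarian surface epithelium, 3 were called lower as well (Krt19 -1.42, Msln -1.06 and Upk3b -0.87), with a summed level of 263 to 319 FPKM in F1-Control and 95.0 to 179.8 in F1-HHcy. Foxj1 and Pax8 passed the filter on low values at Pd21 only through the F1-Control libraries. Of all genes, 5.06% were called lower at Pd21. The part of either marker list in the values of Cd9 was not tested.

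Whether the diet effect itself changed with age was tested with the 18 libraries in a single model. From Pd3 to Pd7 the diet effect became lower for 7 of the 9 genes and higher for 0, against 5.28% lower and 4.75% higher of 14607 genes. It dropped by 2.31 for Zp2 (SE 0.42, adjusted p = 0.0255), by 2.14 for Zp3 (SE 0.42, adjusted p = 0.0331) and by 1.98 for Astl (SE 0.39, adjusted p = 0.0331), and these 3 genes also passed with the adjusted p, against 0.411% of all genes. For Oosp1 the change was -2.38 ± 0.81 (adjusted p = 0.222), for Oosp3 -1.68 ± 0.74 (adjusted p = 0.337), for Oosp2 -1.32 ± 0.62 (adjusted p = 0.359) and for Zp1 -1.18 ± 0.44 (adjusted p = 0.268). Without F1-HHcy Pd7 replicate 2 the count was 4. From Pd7 to Pd21 the diet effect rose for Zp2 (1.13 ± 0.42, adjusted p = 0.153) and Zp3 (1.02 ± 0.42, adjusted p = 0.192), 2 genes higher and 0 lower, against 5.55% and 9.72% of all genes, and 0 passed with the adjusted p, against 3.87%. Each diet effect lay within 1 batch.

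Within the F1-HHcy groups, 4 of the 9 genes were called from Pd3 to Pd7. Oosp1 (1.79 ± 0.57, adjusted p = 0.0726), Oosp2 (1.04 ± 0.44, adjusted p = 0.159) and Oosp3 (1.85 ± 0.53, adjusted p = 0.0499) rose, and Zp2 fell by 0.85 on the log2 scale (SE 0.30, adjusted p = 0.0989). Zp1 gave -0.25 ± 0.31 and Zp3 gave -0.59 ± 0.29, and neither was called. These were 3 genes higher and 1 lower, against 5.76% and 6.03% of all genes, and 1 gene, Oosp3, passed with the adjusted p, against 5.06%. From Pd7 to Pd21, Zp1 (1.18 ± 0.31, adjusted p = 0.0171), Zp3 (0.88 ± 0.29, adjusted p = 0.0445), Astl (1.04 ± 0.28, adjusted p = 0.0171) and Izumo1r (1.09 ± 0.23, adjusted p = 0.00595) rose, which makes 4 genes higher and 0 lower, against 8.22% and 9.68% of all genes. Zp2 thus peaked at Pd3 in the means of the F1-HHcy groups, at 553 ± 153 FPKM, and at Pd7 in those of the F1-Control groups, at 692 ± 186 FPKM.

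The ratio of Oosp1 to Zp2 within a library, which does not depend on how the library was scaled, was taken up after its values had been seen and is given without a test. It was 0.0153, 0.0160 and 0.0218 in F1-Control ovaries at Pd3 and 0.257, 0.123 and 0.0249 in F1-HHcy ovaries. At Pd7 it was 0.142, 0.113 and 0.174 in F1-Control and 0.695, 0.724 and 0.414 in F1-HHcy. At Pd21 it was 0.466, 0.782 and 0.239 against 0.465, 0.663 and 0.742. Among the F1-HHcy libraries of Pd3, replicate 1 was above the range of F1-Control at Pd7, replicate 2 was within it, and replicate 3 was just above the highest F1-Control library of Pd3. The F1-HHcy libraries of Pd7 were within the range of Pd21.

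**Figure D3:**
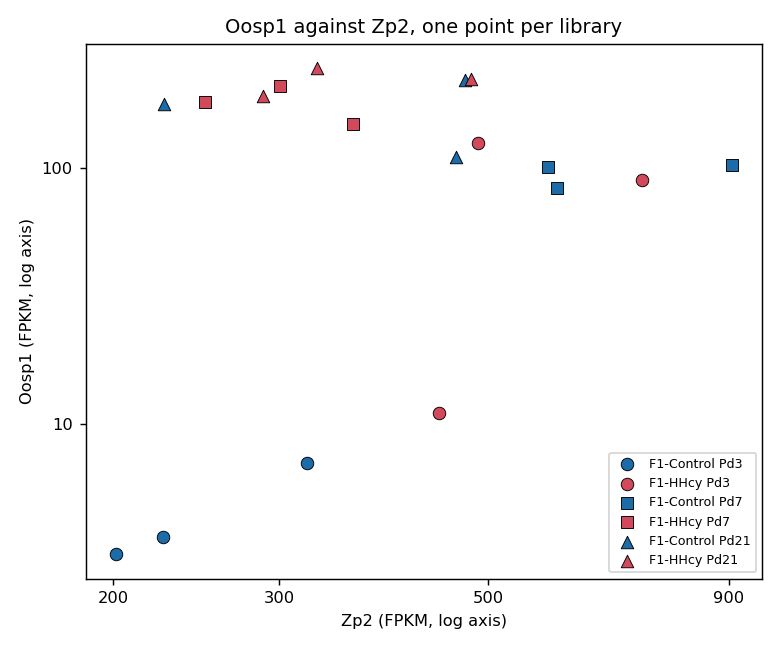
Oosp1 against Zp2 in FPKM, both on log axes, with 1 point per library (circles Pd3, squares Pd7, triangles Pd21, blue F1-Control, red F1-HHcy). The F1-Control libraries of Pd3 lie at the lower left, those of Pd7 at the right, and the F1-HHcy libraries of Pd7 lie at the upper left beside those of Pd21, with more Oosp1 and less Zp2 than F1-Control at Pd7.

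The makeup of the zona transcripts was followed as the share of each gene in the summed FPKM of Zp1, Zp2 and Zp3. Zp2 took 53.2% ± 1.1 (SD, n = 3) of the sum in F1-Control at Pd3 and 53.7% ± 4.6 at Pd7, and 37.4% ± 4.7 at Pd21. Zp1 took 10.6% ± 1.5, 7.4% ± 1.9 and 17.3% ± 0.8 on these days. In F1-HHcy ovaries Zp1 took 8.7% ± 1.5 at Pd3, 11.8% ± 2.5 at Pd7 and 16.9% ± 1.1 at Pd21. The ratio of Zp1 to Zp2 at Pd7 was 0.107, 0.121 and 0.195 in F1-Control and 0.199, 0.203 and 0.337 in F1-HHcy libraries, a log2 difference of 0.81 without overlap (exact permutation test, 2-sided, p = 0.1). That p is the smallest that 3 libraries against 3 can give, so the design cannot reach 0.05. Zp1 to Zp3 at Pd7 gave 0.64 (exact permutation p = 0.1) and Zp2 to Zp3 gave -0.18 (exact permutation p = 0.6). At Pd3 and Pd21 the ratios among the zona genes overlapped between the diets, with log2 differences from -0.32 to -0.01. These were 9 of the 63 ratios that were compared, and with so many of them no adjusted p could be under 0.1.

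**Figure D4:**
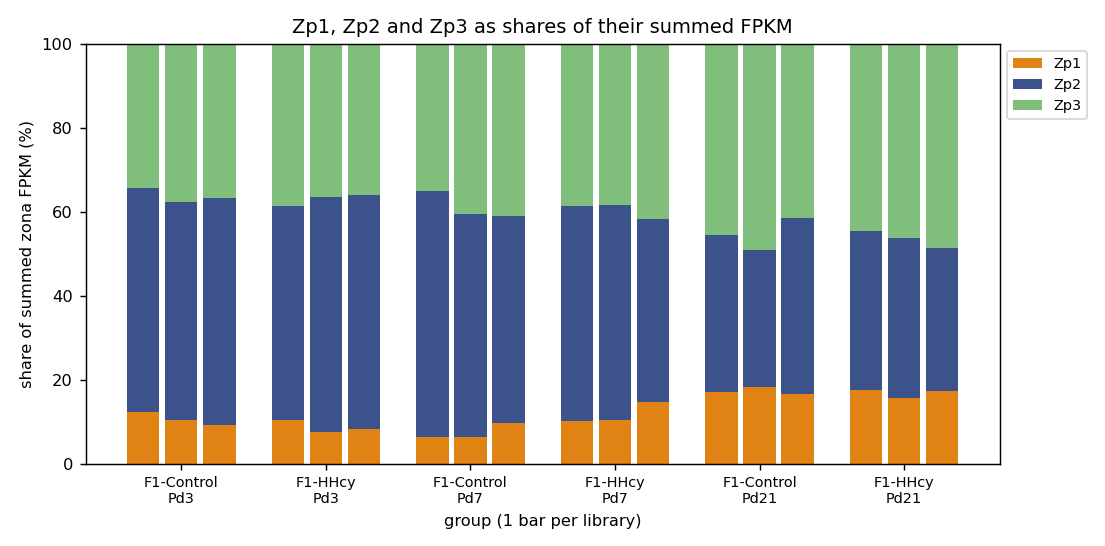
Share of Zp1, Zp2 and Zp3 in their summed FPKM (percent, stacked bars, 1 bar per library in the order of replicates, grouped by diet and day). Zp2 is the largest share in all libraries of Pd3 and Pd7, and Zp3 is the largest share in 5 of the 6 libraries of Pd21.

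The level of each gene was also set against 9 genes of germ cell identity and meiosis (Ddx4, Dazl, Mael, Tdrd1, Tdrd9, Stk31, Rnf17, Sycp3 and Stag3), as a measure within the library. At Pd3 the log2 ratio to their mean was higher in F1-HHcy for all 9 oocyte surface genes without overlap, from 0.98 for Cd9 to 6.10 for Oosp3, with 2.13 for Zp2, 2.14 for Zp3 and 4.53 for Oosp1 (exact permutation p = 0.1 each, the smallest possible). The Oosp3 value rests on 10, 2 and 14 fragments in the F1-Control libraries, so its size is uncertain. At Pd7 the ratio was apart for Oosp1 (2.19), Oosp2 (1.75), Oosp3 (2.56), Izumo1r (1.49) and Cd9 (0.86), while Zp2 (0.12, exact permutation p = 0.7) and Zp3 (0.29, exact permutation p = 0.6) overlapped. The germ cell list itself was lower in F1-HHcy, with a median log2 fold change of -0.90 at Pd3 and at Pd7. A gene that does not change thus has a higher ratio to it, as Cd9 at Pd3, whose own value was -0.01. The share of all genes apart by this ratio was not computed. Set against Gdf9 and Bmp15, growth factors of the growing oocyte, the zona genes were lower in F1-HHcy, with -1.58 for Zp2 at Pd3 and -2.23 at Pd7 (exact permutation p = 0.1 each), and at Pd21 all 3 zona genes overlapped (-0.43 to -0.51). The same ratio was also lower for genes that were not called by the diet, with -2.74 at Pd3 and -1.49 at Pd7 for Cd9 and -2.06 at Pd3 for Izumo1r (exact permutation p = 0.1 each). Of this reference, Bmp15 was 19.3 against 1.22 FPKM (F1-HHcy against F1-Control) at Pd3 and 65.8 against 18.5 at Pd7. Gdf9 was 156 against 40.3 FPKM at Pd3 and 226 against 200 at Pd7, where the diets overlapped. A higher reference lowers the ratio of a gene that does not change. Oosp3 against Gdf9 and Bmp15 gave 2.38 at Pd3 without overlap (exact permutation p = 0.1), on the same few F1-Control fragments. At Pd7 it gave 0.21 (exact permutation p = 0.6). Oosp1 gave 0.82 at Pd3 (exact permutation p = 0.3), -0.15 at Pd7 (p = 0.5, exact) and -0.03 at Pd21 (p = 0.6, exact).

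Of 7 transcription factors of the oocyte that act on these genes or upstream of them, 0 were higher and 3 were lower at Pd3 in F1-HHcy (Lhx8, Sohlh1 and Sohlh2), with a median log2 fold change of -0.71, where 4.74% of all genes were lower. Lhx8 was 17.4 against 36.7 FPKM (-1.11 ± 0.27, adjusted p = 0.0711) and Sohlh1 was 43.1 against 92.9 (-1.27 ± 0.40, adjusted p = 0.122). Figla itself was 41.7 against 63.2 FPKM and was not called. At Pd7, 6 of the 7 were lower and 1, Taf4b, was higher, against 7.35% and 9.06% of all genes. Sohlh1 was 6.49 against 48.9 FPKM (-2.66 ± 0.26, adjusted p = 0.00121), Sohlh2 was 1.03 against 7.00 (-1.94 ± 0.21, adjusted p = 0.00138), and Figla, the driver of the zona genes, was 10.3 against 53.5 (-2.17 ± 0.28, adjusted p = 0.00310). At Pd21, 0 of the 6 tested were called, where 0.0824% of all genes were higher and 5.06% lower. Among the 9 germ cell identity genes, 6 were lower at Pd3 (median -0.90, against 4.74% of all genes lower), 7 were lower at Pd7 (median -0.90, against 7.35%), 0 of the 8 tested were called at Pd21, and 0 were higher on any day. Sycp3, a meiotic chromosome protein gene and the most abundant of them, gave -1.26 at Pd3 without a call and -2.53 at Pd7 (adjusted p = 0.00225).

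Of 11 other genes of the growing oocyte, 8 were higher and 0 were lower at Pd3, with a median log2 fold change of 1.67, against 5.0% higher and 4.74% lower of all genes. Oog1, among the 8, passed the filter on low values only through the F1-HHcy libraries (1.62 to 3.79 FPKM, F1-Control 0.0422 to 0.169). Its call at Pd3 is in part a product of that filter. Zar1, a maternal-effect gene, was 68.7 against 10.1 FPKM (2.63 ± 0.32, adjusted p = 0.0175). Padi6, the most abundant, was 585 against 434 FPKM (0.44 ± 0.21) and was not called. At Pd7, 2 of the 11 were higher, Bmp15 (65.8 against 18.5 FPKM, 1.82 ± 0.23, adjusted p = 0.00300) and Oog1 (6.64 against 2.46), and 3 were lower, Nlrp5, Ooep and Padi6 (303 against 736 FPKM, -1.35 ± 0.32, adjusted p = 0.0284), where 9.06% of all genes were higher and 7.35% lower. At Pd21, 0 of the 11 were called, where 0.0824% of all genes were higher and 5.06% lower. At Pd7 this list, like the oocyte surface genes, had members called in both directions.

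The partners of the surface proteins were followed in lists of their own. Of 12 tetraspanins and their partners in the membrane, 11 were tested at each day and 0 were called at Pd3, 1 was lower at Pd7 (Tspan8, 4.67 against 12.6 FPKM, -1.28 ± 0.21, adjusted p = 0.00688) and 2 were lower at Pd21 (Cd82 and Tspan8), where 4.74%, 7.35% and 5.06% of all genes were lower on these days. Cd82 at Pd21 was 28.3 against 44.2 FPKM (-0.62 ± 0.13, adjusted p = 0.0553). Cd63, the most abundant of them, was 152 against 145 FPKM at Pd3. Of 7 genes for the release of cortical granules and the control of ovastacin, 0 were called at Pd3 and Pd21 and 1 was lower at Pd7, Fetub (7.02 against 28.1 FPKM, -1.86 ± 0.28, adjusted p = 0.00557), whose protein fetuin-B inhibits ovastacin. Of 10 genes for ZP-domain proteins outside the oocyte, 4 were tested at Pd3, and the TGF-beta co-receptors Eng (16.1 against 7.56 FPKM, 1.00 ± 0.17, adjusted p = 0.0313) and Tgfbr3 (9.66 against 4.93 FPKM, 0.84 ± 0.12, adjusted p = 0.0211) were higher. Oit3 was lower at Pd3, at 0.629 against 1.44 FPKM (-0.59 ± 0.15, adjusted p = 0.0795). It passed the filter on low values only through the F1-Control libraries, so its call is in part a product of that filter. At Pd7 2 were tested, Eng and Tgfbr3, and both were higher. Of all genes, 5.0% were higher at Pd3 and 9.06% at Pd7. Plac1, the relative of the Oosp genes, stood at 0.986 against 1.53 FPKM at Pd3 and was not called.

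Over the 18 libraries the Oosp genes followed each other, with a Pearson correlation of log2(FPKM + 1) of 0.98 between Oosp1 and Oosp3 and 0.97 between Oosp1 and Oosp2. Zp2 correlated at 0.79 with Zp3 and at 0.31 with Oosp1, and Cd9 correlated at -0.38 with Oosp1. These values describe 18 libraries that share 6 groups and carry no test. Among 14607 genes, those most like Oosp1 were Bcl2l10, Fbxw20 and Oas1e (0.997, 0.995 and 0.993), those most like Oosp2 were Omt2a, Ftdc2 and Tcstv1 (0.981, 0.981 and 0.980), and those most like Oosp3 were E330011O21Rik, Tcstv1 and Obox1 (0.993, 0.992 and 0.992). Zp1 was followed by Tubg2, Khdc3 and Dnah8 (0.970, 0.964 and 0.938), Zp3 by Vil1, Khdc3 and Oas1c (0.907, 0.899 and 0.896), and Astl by Vrtn, Miox and Zar1 (0.969, 0.967 and 0.962). The nearest to Izumo1r were Fsd1, Gja4 and Aph1a (0.984, 0.974 and 0.967). Zp2 had no gene above 0.879 (Zfp473, then Slc38a8 and Dppa5a at 0.863 and 0.843), and Cd9 was followed by Npl, Rab25 and Ly6h (0.895, 0.890 and 0.869).

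Markers of other ovarian cells also differed with the diet. Beside the counts that follow, 5.0% of all genes were called higher and 4.74% lower at Pd3, and 9.06% higher and 7.35% lower at Pd7. The summed level of 8 granulosa cell markers was 164 to 172 FPKM in F1-Control and 199 to 480.2 in F1-HHcy at Pd3, and 219 to 505 against 489 to 818 at Pd7, with 4 of 6 tested genes called higher at Pd3 and 5 of 8 at Pd7. The sum of 5 erythroid markers, which tell of blood left in the tissue, was 3614 to 10366 FPKM in F1-Control and 745 to 1055 in F1-HHcy at Pd3, and 864 to 5179 against 269 to 470.2 at Pd7. All 5 were lower at Pd3 and 4 of the 4 tested were lower at Pd7. Of the theca and stroma markers, 2 of 3 tested were higher at Pd3 and 4 of 6 at Pd7, and their sum was 66.2 to 91.3 FPKM against 141 to 287 at Pd3 and 171 to 239 against 286 to 541 at Pd7. Cyp17a1, an enzyme of androgen synthesis in theca cells, was 136 against 3.49 FPKM at Pd7 (5.34 ± 0.63, adjusted p = 0.00250). Of 4 endothelial markers 3 were higher at Pd3 and 0 were called at Pd7, and of 4 surface epithelium markers 1 was lower at Pd3 and 2 were lower at Pd7. Of 4 smooth muscle markers 1, Myh11, was higher on both days. Of the leukocyte markers, 0 of 4 tested were called at Pd3 and 2 of 4 were lower at Pd7. The part of these differences in the values of the oocyte surface genes was not tested.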

How the data were processed

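The authors sequenced ovarian RNA of F1 females in 18 libraries (6 groups of 3). Their processing notes name GRCm38, Trimmomatic 0.39, STAR 2.7.9a and featureCounts 2.0.1, without roles or settings. The deposited files hold a value for each gene symbol and name no unit. These deposited values were read as FPKM, because a length per gene and a depth per library turned them into whole fragments for 27294 of 27294 genes above 0 in at least 3 libraries (tolerance 0.02 fragments), with depths of 33630642 to 39399282 fragments.

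Diets were compared within each day on log2(FPKM + 1), using limma 3.58.1 (R 4.3.3) and a variance trend. A gene entered the fit if 3 or more of its libraries reached 1 FPKM. Days and changes of the diet effect were tested in 1 model of all 18 libraries. The criterion of p under 0.05 and log2 fold change over 0.58 is the one printed above the study's volcano plots, where it was read from the picture. Ratios within a library were tested by 2-sided exact permutation (scipy 1.17.1). The fit was tested on simulated data.

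Every gene chosen by symbol is described. By a rule, each list is given by its counts, with its most abundant gene and the 2 genes of smallest p per day for those named, and each gene with the 3 genes most correlated with it. Other genes that a count or a comparison names, such as Figla, and the single markers of other cells were named after their values were seen. The 9 genes and the lists were chosen with earlier results of these data known. Positions and promoters are from GENCODE M21 and RefSeq (GRCm38.p6).

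Alternatives were a pseudocount of 0.1, no filter, 1 model for all days, a replicate block, median-ratio scaling, the adjusted p as threshold, no variance trend and each library left out in turn. Limma-voom on the recovered fragments was added after seeing the data. No column of other samples was used.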

Additional observations from a re-analysis of the deposited data

Results flagged for a closer look

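The diet effect differed between days by a test of the difference itself for 7 genes between Pd3 and Pd7. On the log2 scale the effect at Pd7 minus that at Pd3 was -1.18 for Zp1, -2.31 for Zp2, -2.14 for Zp3, -2.38 for Oosp1, -1.32 for Oosp2, -1.68 for Oosp3 and -1.98 for Astl. For Zp2 and Zp3 the direction of the effect itself turned, from higher at Pd3 to lower at Pd7, and for Oosp1 and Oosp3 it was higher on both days and smaller at Pd7. The effect at Pd21 minus that at Pd7 was 1.13 for Zp2 and 1.02 for Zp3. With 3 libraries per group, no group was large enough for a test of single outlying libraries.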

How the results depend on the processing

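Of 1212 alternative values for the log2 fold changes of single genes, 1132 kept their side of the threshold, 64 lost and 16 gained a call, and 0 calls changed sign. Values without a call could change sign. Cd9 at Pd3 went from -0.01 to 0.11 without F1-HHcy replicate 1, and Izumo1r at Pd7 from 0.17 to -0.13 without F1-HHcy replicate 3. All 462 alternative values of the ratios moved by less than 1 SD of the libraries. Leaving out 1 of 3 libraries cannot move such a difference by more than that, so those values show nothing about robustness. The log2 difference of Zp1 to Zp2 at Pd7, for example, ranged from 0.563 to 1.069 with each library left out. With the adjusted p as threshold, the count of called genes went from 7 to 2 at Pd3, from 4 to 1 for F1-HHcy Pd7 against Pd3, from 7 to 3 for the diet effect at Pd7 minus that at Pd3 and from 2 to 0 for that at Pd21 minus that at Pd7. With each library left out in turn, the count ranged from 5 to 7 for the diets at Pd3, from 4 to 6 at Pd7, from 0 to 2 at Pd21, 7 to 8 for F1-Control Pd7 against Pd3, 2 to 5 for F1-Control Pd21 against Pd7, 3 to 5 for F1-HHcy Pd7 against Pd3, 4 to 7 and 0 to 2 for the 2 changes of the diet effect, and stayed at 4 for F1-HHcy Pd21 against Pd7. The libraries of F1-HHcy Pd7 replicates 1 and 2, F1-Control Pd7 replicate 2 and F1-HHcy Pd21 replicate 1 each lowered the change from Pd7 to Pd21 to 1 gene, and F1-Control Pd21 replicate 2 lowered it to 0. At Pd21 Cd9 was called lower without F1-Control replicate 2 (-0.75), F1-HHcy replicate 1 (-0.64) or F1-HHcy replicate 3 (-0.62). Leaving out an F1-HHcy library of Pd3 removed Oosp3 from the test, since fewer than 3 libraries then reached 1 FPKM. The pseudocount of 0.1 and limma-voom each called 8 genes at Pd3, Izumo1r among them. Without the filter, or with the 12 libraries of Pd3 and Pd7, 5 genes in place of 7 had a lower diet effect at Pd7 than at Pd3. Median-ratio scaling moved the share of higher calls among all genes from 49.5% to 59.7% for F1-Control Pd7 against Pd3 and still called 7 of the 9 genes.

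The replicate numbers of the diets were not used as pairs in the main fits. The correlation of same-numbered deviations from the group means came to -0.15, -0.14 and -0.20 (Pd3), 0.06, -0.11 and 0.09 (Pd7) and -0.16, -0.12 and -0.34 (Pd21). Deviations within so small a group depend on each other, so these values cannot show whether libraries were paired. With the replicate block the diet counts of 7 (Pd3), 4 (Pd7) and 0 (Pd21) stood, and F1-Control Pd21 against Pd7 had 4 in place of 5, without Astl.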
